A study of Mus musculus with 15 samples.

Results

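Blood vessels are lined by endothelial cells, and 10 genes used to recognise these cells were followed in the secondary palate of wild-type mice: *Pecam1*, *Cdh5*, *Kdr*, *Flt1*, *Tie1*, *Tek*, *Sox17*, *Emcn*, *Esam* and *Vwf*. They were listed by name and found by symbol among the 54232 genes of the deposited count table. All 10 were present once, and all 10 passed the filter on low counts. The palate, which parts the mouth from the nose, was dissected at 4 times before birth, named E13.5, E14.5, E15.5 and E16.5 by days of gestation, and at birth (P0), in animals labelled wild type, with no treatment named and no strain given in the sources used here. Each of the 5 stages had 3 bulk RNA libraries, and each library pooled the palates of 3 embryos, so the spread reported is a spread between pools. Libraries are numbered as in their labels, and values for a stage are given in the order of libraries 1, 2 and 3.

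The members divide by role. *Kdr* (VEGFR2), the main signalling receptor for vascular endothelial growth factor (VEGF), and *Flt1* (VEGFR1), which binds VEGF tightly and in a soluble form acts as its decoy, set how strongly endothelial cells sprout. *Tek* (TIE2) is the receptor of the angiopoietins and *Tie1* its co-receptor, a pathway that settles vessels after they have formed. *Cdh5* (VE-cadherin), *Pecam1* (CD31) and *Esam* are adhesion molecules of endothelial junctions, *Emcn* (endomucin) is a sialomucin of the luminal surface best known from veins and capillaries, *Vwf* encodes the clotting factor stored in Weibel-Palade bodies, and *Sox17* is a transcription factor of arterial endothelium. Several are also made by other cells: *Pecam1* and *Vwf* by platelets and their precursors, *Pecam1* by some leukocytes.

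On the mouse build GRCm38, as the deposited table places them, the members lie on 8 chromosomes: *Kdr* (ENSMUSG00000062960.10) on chromosome 5 from 75932827 to 75978458, *Flt1* (ENSMUSG00000029648.13) on chromosome 5 from 147561604 to 147726011, *Tie1* (ENSMUSG00000033191.14) on chromosome 4 from 118471191 to 118490061, *Tek* (ENSMUSG00000006386.15) on chromosome 4 from 94739289 to 94874976, *Cdh5* (ENSMUSG00000031871.9) on chromosome 8 from 104101625 to 104144511, *Pecam1* (ENSMUSG00000020717.19) on chromosome 11 from 106654217 to 106750628, *Esam* (ENSMUSG00000001946.14) on chromosome 9 from 37528078 to 37538319, *Emcn* (ENSMUSG00000054690.17) on chromosome 3 from 137341067 to 137432185, *Vwf* (ENSMUSG00000001930.17) on chromosome 6 from 125546774 to 125686679 and *Sox17* (ENSMUSG00000025902.13) on chromosome 1 from 4490931 to 4497354. *Cdh5* and *Sox17* each overlap 1 gene on the opposite strand (*Gm29682* and *Gm37587*), and the authors counted by strand.

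RefSeq promoter windows, 250 bases before to 50 after a gene's start, matched 5 of the 10 members (*Kdr*, *Flt1*, *Tie1*, *Tek* and *Emcn*; table built on GRCm38.p6). The windows of the 4 receptors are shown because the results below compare *Flt1* with *Kdr* and *Tie1* with *Tek*. They were searched on both strands for letters bound by families of factors active in endothelium, in the forms AGGAAG for the ETS family, ACAAAG for SOX factors and GATAAG for GATA factors, for the longer ETS form CCGGAAG, and for the TATA box, TATAAA. None of these motifs contains another. Capitals mark a match, and each window is written 5′ to 3′ on the gene's own strand.
*Flt1* lies at chr5:147725962-147726261, minus strand, and *Kdr* at chr5:75978406-75978705, minus strand.
Flt1: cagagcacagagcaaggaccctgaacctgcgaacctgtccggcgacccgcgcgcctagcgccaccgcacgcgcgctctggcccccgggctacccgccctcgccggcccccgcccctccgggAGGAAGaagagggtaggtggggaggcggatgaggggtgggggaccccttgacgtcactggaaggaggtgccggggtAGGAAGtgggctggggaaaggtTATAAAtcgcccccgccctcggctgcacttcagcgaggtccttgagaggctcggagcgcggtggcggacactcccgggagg
Kdr: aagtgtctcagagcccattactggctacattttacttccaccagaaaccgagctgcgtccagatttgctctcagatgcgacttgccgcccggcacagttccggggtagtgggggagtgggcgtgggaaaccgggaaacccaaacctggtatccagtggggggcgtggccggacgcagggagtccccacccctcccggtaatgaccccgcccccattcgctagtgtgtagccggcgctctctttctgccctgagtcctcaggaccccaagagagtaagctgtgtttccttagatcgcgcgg
*Tie1* lies at chr4:118489800-118490099, minus strand, and *Tek* at chr4:94739039-94739338, plus strand.
Tie1: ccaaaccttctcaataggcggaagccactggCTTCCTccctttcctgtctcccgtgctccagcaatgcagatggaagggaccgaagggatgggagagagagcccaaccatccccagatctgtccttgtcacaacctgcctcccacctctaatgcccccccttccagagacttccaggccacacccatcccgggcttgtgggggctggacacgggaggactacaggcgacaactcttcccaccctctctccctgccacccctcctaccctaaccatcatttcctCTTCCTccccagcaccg
Tek: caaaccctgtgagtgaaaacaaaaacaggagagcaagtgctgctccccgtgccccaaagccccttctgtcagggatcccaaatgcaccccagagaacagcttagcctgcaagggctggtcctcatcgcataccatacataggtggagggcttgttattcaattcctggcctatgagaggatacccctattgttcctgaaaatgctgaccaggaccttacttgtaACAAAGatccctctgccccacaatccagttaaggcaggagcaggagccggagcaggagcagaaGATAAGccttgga

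The *Flt1* window held AGGAAG at bases 122 to 127 and 198 to 203 and TATAAA at bases 220 to 225, counted from the window's first base, whereas the *Kdr* window held none of the 5 motifs. In *Tie1* the same ETS form, read on the opposite strand and so written CTTCCT, stood at bases 32 to 37 and 284 to 289, the latter inside the transcribed part. *Tek* had ACAAAG at 225 to 230 and GATAAG at 288 to 293. The *Emcn* window (chr3:137340828-137341127, plus strand), not printed, had CTTCCT at 77 to 82 and AGGAAG at 158 to 163. Among 32851 promoter windows of 300 bases, AGGAAG was held by 35.4%, ACAAAG by 18.7%, TATAAA by 13.6%, CCGGAAG by 8.86% and GATAAG by 7.44%. These are letter matches only, and CCGGAAG was in none of the 5 windows.

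Depth was 21470759 to 69019565 assigned counts per library, at which 3 counts, taken as the detection floor, equal 0.0435 to 0.140 CPM (counts per 1000000 counts of the library; gene values below are scaled by TMM, the trimmed mean of M values). The members had 217 (*Sox17*) to 10284 (*Cdh5*) counts in a library. Palate mesenchyme genes were present (*Osr2* at 63.6 ± 12.2 CPM at E13.5; mean ± SD, n = 3 here and below), and so were epithelial genes (*Epcam* at 67.1 ± 23.2). Some libraries held transcripts of neighbouring tissue in amounts that differed within a stage. *Ttr*, a choroid plexus gene, was at 1224, 8.64 and 673 CPM in E14.5 libraries 1 to 3, and the sum of 6 skeletal muscle genes was 37122, 17340.4 and 12156 CPM at E16.5 and 28341, 35628 and 5736 at P0. In bulk tissue, fewer endothelial cells and less RNA per endothelial cell cannot be told apart.

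The first comparison asked how the junction and surface genes changed over the series. *Pecam1* rose most of all members. It was at 66.5, 52.2 and 65.9 CPM in the E13.5 pools, 48.1, 64.7 and 72.9 in the E14.5 pools, 86.5, 84.4 and 78.6 in the E15.5 pools, 186, 106 and 98.4 in the E16.5 pools and 154, 175 and 108 in the P0 pools. Every P0 library lay above every E13.5 library, a 2.37-fold rise (log2 fold change, P0 over E13.5, 1.24, SE 0.25, adjusted p 0.00112; edgeR's quasi-likelihood test, Benjamini-Hochberg over 22151 genes). *Esam* was at 28.4, 22.0 and 27.2 CPM in the pools of E13.5, 22.9, 27.4 and 27.8 in those of E14.5, 34.0, 34.9 and 33.6 in those of E15.5, 63.6, 32.8 and 33.2 in those of E16.5 and 52.9, 51.6 and 45.4 in those of P0. It was 1.93-fold higher at P0 than at E13.5 (log2 fold change 0.95, SE 0.22, adjusted p 0.00284), again with no overlap of libraries.

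*Cdh5*, the adherens junction cadherin, rose less in fold. Its libraries stood at 129.7, 89.9 and 131 CPM in the E13.5 pools, 84.8, 118 and 123 in the E14.5 pools, 169.7, 147 and 135 in the E15.5 pools, 222, 145 and 146 in the E16.5 pools and 179.7, 229 and 131 in the P0 pools. P0 library 3 was only just above the highest E13.5 library, and the 1.54-fold rise (log2 fold change 0.62, SE 0.24) was near the threshold, with an adjusted p of 0.0407 that moved to between 0.013 and 0.169 when single libraries were left out. *Emcn*, of the luminal surface, did not pass. It was at 30.1, 21.1 and 31.8 CPM in the pools of E13.5, 14.95, 25.0 and 29.9 in those of E14.5, 37.0, 37.7 and 29.0 in those of E15.5, 47.5, 26.1 and 27.9 in those of E16.5 and 39.9, 26.2 and 30.3 in those of P0, with overlapping libraries between P0 and E13.5 and a log2 fold change of 0.22 (SE 0.29, adjusted p 0.536).

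*Vwf*, the stored clotting factor, was at 41.9, 28.7 and 27.5 CPM in the E13.5 pools, 31.1, 34.4 and 30.3 in the E14.5 pools, 39.9, 41.0 and 34.3 in the E15.5 pools, 84.9, 51.7 and 49.7 in the E16.5 pools and 75.3, 52.9 and 53.1 in the P0 pools. All 6 libraries of E16.5 and P0 lay above all 9 of the earlier stages. At P0 it was 1.85-fold higher than at E13.5 (log2 fold change 0.89, SE 0.23, adjusted p 0.0052). *Sox17*, the arterial transcription factor, was at 5.73, 5.16 and 6.03 CPM in the pools of E13.5, 5.05, 6.08 and 4.97 in those of E14.5, 6.69, 6.69 and 5.70 in those of E15.5, 9.50, 6.06 and 5.38 in those of E16.5 and 7.66, 9.48 and 9.45 in those of P0. Apart from E16.5 library 1, every library of the 4 embryonic stages lay below every P0 library. The 1.57-fold rise had an adjusted p of 0.0201 (log2 fold change 0.65, SE 0.21).

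**Figure D1:**
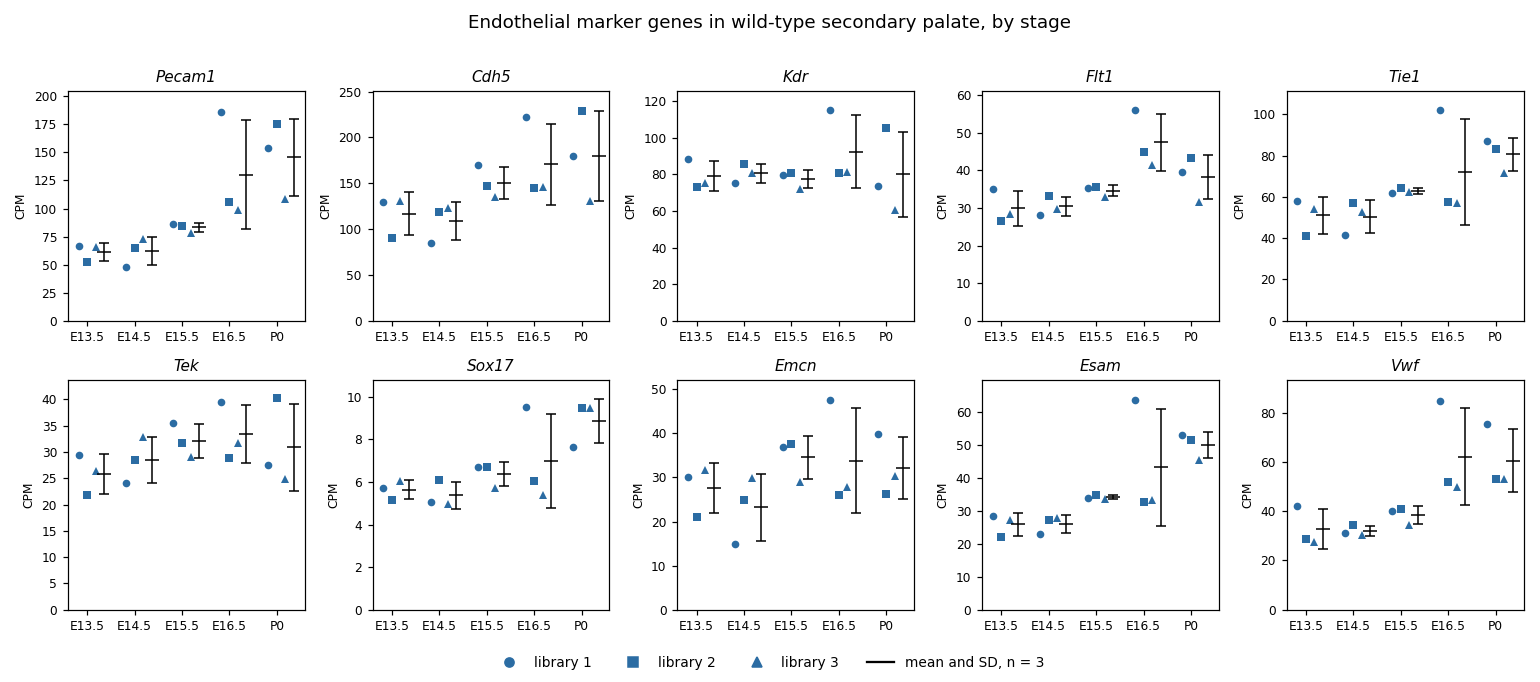
CPM of each of the 10 genes (vertical axes, from 0) in the 3 libraries of each stage (points) with the stage mean and SD (bars, n = 3). *Pecam1*, *Esam* and *Vwf* are higher at P0 than at E13.5 without overlap, *Kdr* differs least, and E16.5 library 1 is the highest of its stage in all 10 panels.

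The receptors were less uniform. *Kdr* changed least of the members from E13.5 to P0. Its libraries were at 88.6, 73.3 and 75.3 CPM in the E13.5 pools, 75.0, 85.7 and 80.6 in the E14.5 pools, 79.7, 80.6 and 71.8 in the E15.5 pools, 115, 80.5 and 81.0 in the E16.5 pools and 73.7, 105 and 60.7 in the P0 pools. Stage means ran only from 77.4 to 92.3 CPM, and the log2 fold change of P0 over E13.5 was 0.02 with an SE of 0.19 (adjusted p 0.949). *Flt1*, its higher-affinity counterpart, was at 35.1, 26.4 and 28.3 CPM in the pools of E13.5, 28.2, 33.2 and 29.7 in those of E14.5, 35.4, 35.6 and 32.8 in those of E15.5, 56.0, 44.8 and 41.4 in those of E16.5 and 39.5, 43.3 and 31.7 in those of P0. Every E16.5 library exceeded every earlier one, while P0 overlapped E13.5 (log2 fold change 0.35, SE 0.16, adjusted p 0.0701; 0.0493 with DESeq2).

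Of the angiopoietin receptor pair, *Tie1* was at 58.0, 41.0 and 54.3 CPM in the E13.5 pools, 41.4, 56.9 and 52.8 in the E14.5 pools, 61.8, 64.3 and 62.3 in the E15.5 pools, 102, 57.7 and 57.1 in the E16.5 pools and 87.1, 83.1 and 71.8 in the P0 pools. It was 1.58-fold higher at P0 than at E13.5 with no overlap (log2 fold change 0.66, SE 0.21, adjusted p 0.0194). *Tek*, which binds the ligand, was at 29.4, 21.9 and 26.3 CPM in the pools of E13.5, 24.1, 28.4 and 32.9 in those of E14.5, 35.5, 31.6 and 29.1 in those of E15.5, 39.5, 28.9 and 31.7 in those of E16.5 and 27.5, 40.2 and 24.8 in those of P0. Its libraries overlapped in every pair of stages compared (P0 over E13.5, log2 fold change 0.25, SE 0.20, adjusted p 0.289).

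Counted together, 6 of 10 members rose from E13.5 to P0 (*Pecam1*, *Esam*, *Vwf*, *Tie1*, *Sox17* and *Cdh5*) and 0 fell, where 29.8% of all tested genes rose, 26.8% fell and 56.6% passed in either direction. An unadjusted p under 0.05 was found for 7 members (61.7% of genes). The median log2 fold change of the members was 0.64, against 0.03 over all genes. The 6 that rose were also the 6 whose P0 libraries all lay above their E13.5 libraries, which 30.2% of tested genes did. Over all 5 stages together, 5 members differed (*Pecam1*, *Vwf*, *Esam*, *Flt1* and *Tie1*, adjusted p 0.00151, 0.00361, 0.00602, 0.0112 and 0.0459), where 59.1% of genes did.

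The rise leaned on some libraries. P0 library 3 was the lowest of its stage in 7 of 10 members, and P0 libraries 1 and 2 were the ones with much muscle RNA (sums above) and with *Fabp4*, a fatty acid carrier of capillaries and fat, at 431, 1805 and 49.2 CPM in libraries 1 to 3. Leaving out P0 libraries 1 and 2, an alternative chosen after the data were seen, leaves 1 P0 library, so the spread at P0 cannot be measured. The log2 fold changes were then 0.83 for *Pecam1*, 0.83 for *Esam*, 0.76 for *Sox17* and 0.72 for *Vwf*. Those of *Tie1* and *Cdh5* were 0.51 and 0.19, and that of *Kdr* was -0.36. Without E13.5 library 2, the lowest of its stage in 9 members, 3 of 10 passed (*Pecam1*, *Esam* and *Vwf*). Over all tested genes, 10668 to 13089 passed when single libraries were left out. The part of muscle and fat transcripts in the result was not tested.

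**Figure D2:**
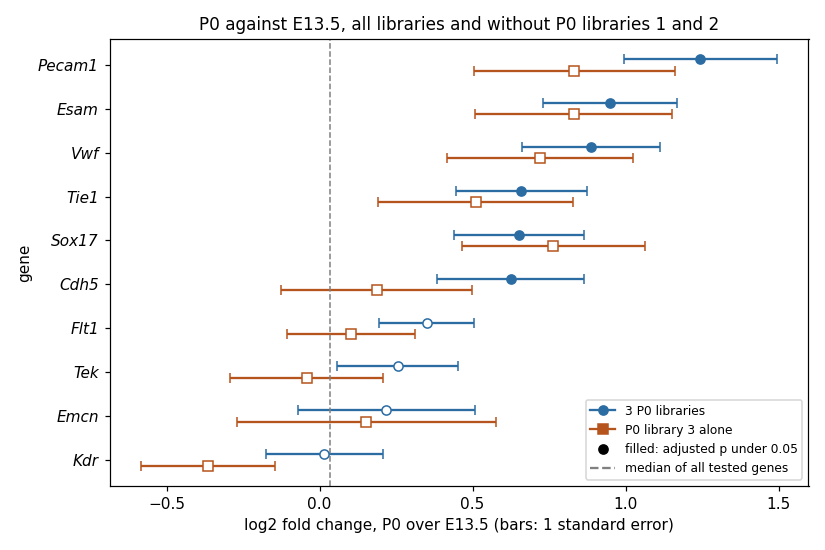
Log2 fold change of P0 over E13.5 with 1 standard error for each gene, with all 3 P0 libraries (circles) and with P0 library 3 alone (squares); filled symbols have an adjusted p under 0.05 and the dashed line is the median of all tested genes. With 3 libraries 6 genes pass. Library 3 alone gives no spread at P0, so the fill of the squares rests on the spread of the other stages. In that setting *Pecam1* is at 0.83 and *Kdr* at -0.36.

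Between neighbouring stages 0 of 10 members passed with edgeR, and DESeq2 gave 0, 0, 1 (*Vwf*, adjusted p 0.0458) and 0 over the 4 steps in order. From E13.5 to E14.5, 0 of 10 passed (0.00903% of genes did), 0 had an unadjusted p under 0.05 (16% of genes) and all 10 overlapped (15.5% of genes were higher and 13.7% lower without overlap), with log2 fold changes from -0.25 (*Emcn*) to 0.14 (*Tek*). From E14.5 to E15.5, the step at which 26.1% of genes passed and 39.7% had an unadjusted p under 0.05, both counts were again 0 of 10. The changes there ran from -0.06 (*Kdr*) to 0.57 (*Emcn*), 9 of 10 were positive, and *Pecam1*, *Cdh5*, *Tie1* and *Esam* did not overlap (24% of genes were higher at E15.5 in this way). *Esam* passed when E16.5 library 1 was left out of the shared fit (adjusted p 0.0222).

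From E15.5 to E16.5, 0 of 10 passed (1.41% of genes did), while *Vwf*, *Pecam1* and *Flt1* had an unadjusted p under 0.05 (21.8% of genes), with log2 fold changes of 0.69, 0.65 and 0.45 (adjusted p 0.113, 0.159 and 0.126). In these 3 every E16.5 library lay above every E15.5 library, as in 15.7% of genes. E16.5 library 1 set much of the size, being the highest of its stage in all 10 members. On the log2 scale the members lay on average 0.45 above the stage mean in library 1, and at -0.22 and -0.24 in libraries 2 and 3. Library 1 also had the most muscle RNA of the stage, and *Fabp4* was at 1211, 53.9 and 39.3 CPM in libraries 1 to 3. Without E16.5 library 1 the 3 changes were 0.38, 0.28 and 0.30. The make-up of the pools by sex differed as well: 4 Y-linked genes summed to 0.151 to 0.332 CPM in the 3 E16.5 libraries, to 88.1 to 172 in the 3 of E14.5, and spanned low and high values in each of the other stages (0.337 to 160.3 at E15.5). Its part in the results was not tested. From E16.5 to P0, 0 of 10 passed (0.352% of genes) and 0 had an unadjusted p under 0.05 (11.7%), and all 10 overlapped (6.23% of genes were higher and 5.39% lower without overlap).

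Levels of different genes were compared per length, as TPM (transcripts per 1000000, computed from the deposited counts and gene lengths). At E13.5 the order was *Cdh5* (104 ± 21.5 TPM), *Tie1* (39.1 ± 7.54), *Pecam1* (37.1 ± 5.33), *Esam* (33.9 ± 5.05), *Kdr* (33.0 ± 4.81), *Tek* (20.7 ± 3.59), *Emcn* (19.2 ± 3.97), *Flt1* (8.35 ± 1.62), *Vwf* (7.70 ± 2.22) and *Sox17* (4.44 ± 0.347). *Tie1* to *Kdr* did not differ beyond their SDs, nor did *Tek* from *Emcn* or *Flt1* from *Vwf*. TPM has no TMM scaling between libraries, so it is read here for the order within a stage and not for changes between stages. At P0 *Cdh5* was first with 118 ± 21.5 TPM, and *Pecam1* (64.6 ± 8.73) stood apart from *Esam* (48.7 ± 2.19) and *Tie1* (45.8 ± 1.58). *Kdr* (24.5 ± 5.19) was within the SDs of *Tek* (18.1 ± 3.68) and *Emcn* (16.7 ± 3.53), and *Vwf* (10.5 ± 1.81) stood above *Flt1* (7.85 ± 0.439). *Sox17* (5.25 ± 1.11 at P0) was last at each of the 5 stages.

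Ratios of member counts within a library do not depend on the scaling between libraries. Each was tested over the 5 stages with 100000 permutations of the stage labels, adjusted over 6 ratios, with an exact permutation test of P0 against E13.5 beside it, whose p cannot go below 0.1. *Flt1* gained on *Kdr*. The log2 ratio was -1.33, -1.47 and -1.41 in the E13.5 pools, -1.41, -1.37 and -1.44 in the E14.5 pools, -1.17, -1.18 and -1.13 in the E15.5 pools, -1.04, -0.85 and -0.97 in the E16.5 pools and -0.90, -1.28 and -0.94 in the P0 pools. All 9 libraries from E15.5 on lay above all 6 earlier ones, and the difference between stages passed (permutation adjusted p 0.00604, exact p of P0 against E13.5 0.1).

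*Emcn* lost ground to *Pecam1*: the mean log2 ratio ran, in stage order, through -1.17 ± 0.13, -1.45 ± 0.21, -1.27 ± 0.14, -1.94 ± 0.11 and -2.17 ± 0.50 (permutation adjusted p 0.00375, exact p 0.1). The 6 libraries of E16.5 and P0, at -1.97, -2.02 and -1.82 and -1.94, -2.74 and -1.83, all lay below the 9 others. With P0 library 3 as the only P0 library, the ratio of *Emcn* to *Pecam1* was still 0.66 lower on the log2 scale than at E13.5. That of *Flt1* to *Kdr* was 0.47 higher. A single library gives no spread at P0, so these shifts from E13.5 were not tested.

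The ratio of *Sox17* to *Pecam1* was near the threshold. It went from -3.44 ± 0.10 at E13.5 and -3.51 ± 0.32 at E14.5 to -3.71 ± 0.07, -4.20 ± 0.08 and -4.01 ± 0.44 over the 3 later stages (permutation adjusted p 0.0328, exact p 0.2), and it passed in 7 of 15 tests with a single library dropped (adjusted p up to 0.0739) and not with the replicate block (adjusted p 0.0656). P0 library 3, at -3.51, lay among the E13.5 libraries, and without P0 libraries 1 and 2 the difference of P0 from E13.5 was -0.07. *Tie1* against *Tek* was 0.98 ± 0.07 at E13.5 and 1.41 ± 0.33 at P0, with P0 libraries at 1.66, 1.04 and 1.53, and did not pass (permutation adjusted p 0.065, exact p 0.1). *Vwf* against *Pecam1* was -0.93 ± 0.30 and -1.26 ± 0.41 and did not pass either (permutation adjusted p 0.598, exact p 0.4).

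**Figure D3:**
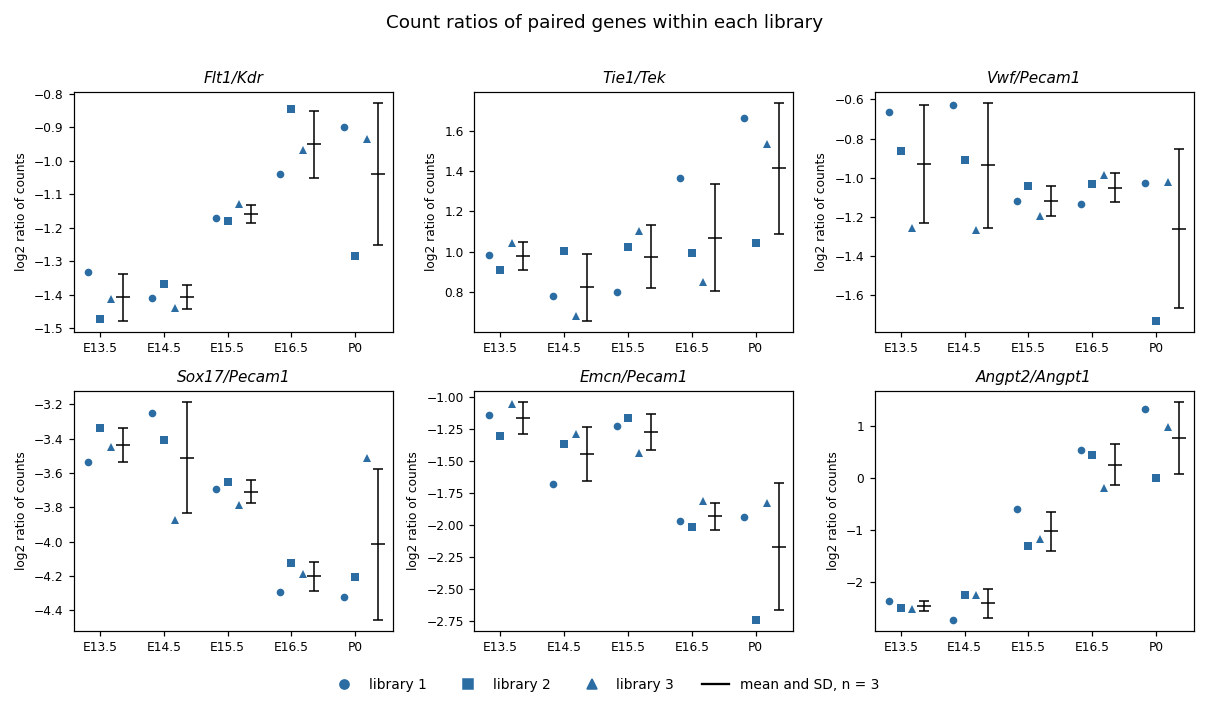
Log2 ratio of counts of 2 genes within each library (vertical axes) by stage, points for libraries and bars for the stage mean and SD (n = 3). *Flt1* rises against *Kdr* and *Emcn* falls against *Pecam1*, while the ratio of the ligands *Angpt2* and *Angpt1* goes from -2.46 at E13.5 to 0.77 at P0.

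The ligands of these receptors were read beside them, and changes given below with no unit are log2 fold changes of P0 over E13.5 unless another step is named. Of 8 VEGF ligands, co-receptors and decoys, 1 rose from E13.5 to P0 and 0 fell. The one that rose was *Vegfd*, with a log2 fold change of 1.08 (adjusted p 0.0448), from 3.92 ± 1.64 to 8.27 ± 1.30 CPM, and it passed in 5 of the 15 fits with a single library dropped (adjusted p up to 0.159) and not without P0 libraries 1 and 2 (adjusted p 0.194). *Vegfa*, the main ligand of *Kdr*, was at 100.5 ± 4.91 CPM at E13.5 and 78.8 ± 24.4 at P0 (log2 fold change -0.35, adjusted p 0.0942), and *Pgf*, which binds *Flt1*, at 9.87 ± 1.17 and 9.47 ± 2.12 (-0.06, adjusted p 0.841). *Vegfc* (-0.58, adjusted p 0.0537), its receptor *Flt4* (0.31, adjusted p 0.177) and the co-receptor *Nrp1* (-0.16, adjusted p 0.582) did not pass.

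The angiopoietins shifted in opposite directions while *Tek* did not pass. *Angpt1*, the *Tek* agonist made by perivascular and mesenchymal cells, was at 35.2, 25.6 and 36.5 CPM in the E13.5 pools, 28.6, 32.5 and 35.9 in the E14.5 pools, 35.3, 38.0 and 39.9 in the E15.5 pools, 15.1, 15.5 and 26.3 in the E16.5 pools and 11.7, 17.04 and 14.6 in the P0 pools. All P0 libraries lay below all E13.5 libraries (log2 fold change -1.17, SE 0.23, adjusted p 0.000864). *Angpt2*, made by endothelial cells and a context-dependent antagonist, was at 6.87, 4.54 and 6.33 CPM in the pools of E13.5, 4.33, 6.81 and 7.54 in those of E14.5, 23.3, 15.4 and 17.6 in those of E15.5, 21.9, 20.9 and 23.0 in those of E16.5 and 29.4, 16.98 and 28.9 in those of P0. Its step came between E14.5 and E15.5 (log2 fold change 1.59, adjusted p 0.00221), where the change of *Angpt1* was 0.22 (adjusted p 0.48). Without the E14.5 libraries 1 and 3 that held *Ttr*, the step of *Angpt2* was 1.50, with 1 E14.5 library left and so no spread there. The log2 ratio of *Angpt2* to *Angpt1* counts went from -2.46 ± 0.09 to -1.03 ± 0.38, 0.26 ± 0.39 and 0.77 ± 0.69 at E15.5, E16.5 and P0, a 9.39-fold change over the series (permutation adjusted p 0.00012, exact p 0.1). Of the 5 genes of this list 3 rose and 1 fell: *Ptprb*, the phosphatase that acts on *Tek*, went from 20.9, 14.8 and 15.3 CPM to 39.0, 81.0 and 30.3 CPM (log2 fold change 1.56, adjusted p 0.000886), and *Angpt4* from 0.366 ± 0.0533 to 5.37 ± 3.08 (3.87, adjusted p 7.8e-05). Without P0 libraries 1 and 2, 1 P0 library is left and gives no spread at P0. The log2 fold changes were then -1.13 for *Angpt1*, 2.31 for *Angpt2*, 0.85 for *Ptprb* and 3.17 for *Angpt4*.

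Of the endothelial transcription factors, 15 listed and 14 tested, 4 rose and 3 fell from E13.5 to P0, near the 29.8% and 26.8% of all genes. The flow-responsive *Klf2* was at 7.74, 5.80 and 8.71 CPM in the E13.5 pools, 6.90, 10.5 and 14.4 in the E14.5 pools, 17.9, 16.4 and 17.6 in the E15.5 pools, 34.4, 20.2 and 23.2 in the E16.5 pools and 48.1, 46.5 and 43.9 in the P0 pools (log2 fold change P0 over E13.5 2.64, adjusted p 1.22e-05), and *Klf4* rose by 1.41 (adjusted p 0.000596). *Mef2c*, also a muscle factor, rose by 1.32, or by only 0.44 without P0 libraries 1 and 2. Of the ETS factors, *Erg* was at 37.1, 27.1 and 41.2 CPM at E13.5 and 16.4, 16.98 and 17.3 at P0 (log2 fold change -1.06, adjusted p 0.0045; 0.0953 without those 2 libraries) and *Fli1* fell by 0.75 (adjusted p 0.0234; 0.0524). Both are also expressed in cartilage or blood lineages. *Tal1*, shared with blood cells and neurons, fell by 2.34 (adjusted p 0.000197), and its fall lay between E14.5 and E15.5 (-2.81, adjusted p 0.000673). *Etv2*, of the first endothelial progenitors, was under the floor and not tested.

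**Figure D4:**
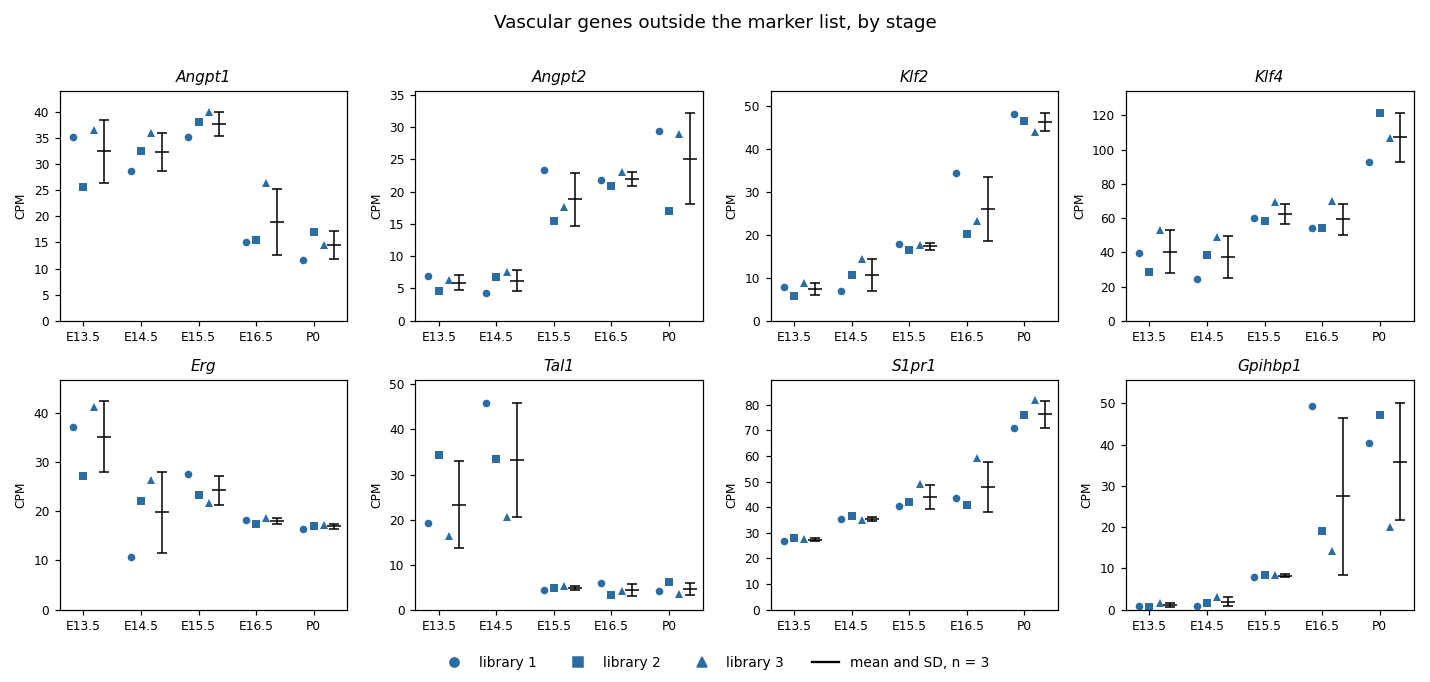
CPM (vertical axes, from 0) of 8 vascular genes outside the marker list in the 3 libraries of each stage, with mean and SD (n = 3). *Angpt2*, *Klf2*, *Klf4*, *S1pr1* and *Gpihbp1* are higher and *Angpt1*, *Erg* and *Tal1* lower at P0 than at E13.5.

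The other pan-endothelial genes resembled the rising members in direction. Of 20, 14 rose and 0 fell, where 29.8% of all genes rose and 26.8% fell, and the median log2 fold change was 0.75. With single libraries dropped, 10 to 16 of the 20 passed, and each of these fits kept P0 library 1 or 2. The largest rises were those of *S1pr1*, the sphingosine phosphate receptor that steadies junctions (1.48, adjusted p 7.22e-06; from 27.4 ± 0.73 to 76.3 ± 5.32 CPM), *Cd34* (from 78.0 ± 16.4 to 169 ± 35.9 CPM, adjusted p 0.00375; log2 fold change 0.74 without P0 libraries 1 and 2) and *Egfl7* (1.11, adjusted p 0.00143).

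The lists by vessel type were read against the same shares of all genes, 29.8% higher and 26.8% lower, and the lists were not tested against each other. Of 7 capillary and fenestration genes, 5 rose and 0 fell. *Gpihbp1*, which holds lipoprotein lipase on capillaries, was at 0.889, 0.676 and 1.59 CPM at E13.5, 7.91, 8.47 and 8.39 at E15.5 and 40.3, 47.2 and 19.98 at P0 (log2 fold change 5.09, adjusted p 3.27e-05; 4.27 with library 3 alone). *Fabp4* and the fatty acid transporter *Cd36*, both also made by fat and *Cd36* by muscle too, rose by 9.82 and 4.54, or 5.89 and 2.29 with library 3 alone. *Plvap*, of fenestral diaphragms, was at 35.2 ± 8.17 CPM at E13.5 and 55.6 ± 13.7 at P0 (log2 fold change 0.66, adjusted p 0.0667).

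Of 10 arterial genes 3 rose and 2 fell, near the share of all genes. *Bmx* rose by 3.26 (adjusted p 2.29e-05), *Unc5b* by 1.03 (adjusted p 0.00111) and *Notch4* by 0.64 (adjusted p 0.0165). Without P0 libraries 1 and 2 the rise of *Notch4* was 0.38. *Efnb2* fell by 1.19 (adjusted p 1.46e-05) and *Notch1* by 0.83 (adjusted p 0.00265), both of which are active in other palate cells too. Of 4 venous genes 0 rose and 2 fell, the venous identity factor *Nr2f2*, also a mesenchymal gene (-1.35, adjusted p 7.46e-05), and *Ephb4* (-0.69, adjusted p 0.0121, up to 0.0531 with single libraries dropped). Without P0 libraries 1 and 2 the log2 fold change of *Ephb4* was -0.63. Of 6 tip cell genes 3 rose, *Angpt2*, *Pdgfb* (1.66, adjusted p 4.97e-06), which recruits pericytes, and *Esm1* (1.20, adjusted p 0.00145).

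Of 5 lymphatic genes 2 rose and 0 fell. They were *Lyve1*, shared with macrophages (3.20, adjusted p 0.000147; from 2.89 ± 1.49 to 26.5 ± 11.6 CPM), and *Pdpn*, shared with bone and epithelium (0.60, adjusted p 0.00189), whereas the lymphatic master regulator *Prox1* was at 20.6 ± 10.4 and 12.8 ± 9.32 CPM (-0.68, adjusted p 0.208). All 7 genes of endothelial activation and storage passed, 5 higher and 2 lower. The leukocyte rolling receptors *Selp* and *Sele*, at or near the floor at E13.5 (0.0483 ± 0.0175 and 0.0384 ± 0.0164 CPM), reached 1.22 ± 0.364 and 1.41 ± 0.943 CPM at P0, and *Icam1* rose by 1.27 (adjusted p 0.0012). *Vcam1*, also made by mesenchyme and muscle, fell by 1.68 (adjusted p 1.3e-05). *F8*, the coagulation factor carried by the *Vwf* product, fell by 0.51 (adjusted p 0.0332, up to 0.143 with single libraries dropped). Without P0 libraries 1 and 2 the log2 fold change of *F8* was -0.72.

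The median log2 fold change from E13.5 to P0 was -0.06 for the VEGF list, 1.56 for the angiopoietin axis, 0.11 for the transcription factors, 0.05 for the arterial, -0.52 for the venous, 2.75 for the capillary, 0.78 for the tip cell, 0.31 for the lymphatic and 0.90 for the activation genes, beside 0.03 for all genes.

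Between E14.5 and E15.5, where 0 of the 10 members passed, 26.1% of all genes did (12.7% higher and 13.4% lower; with upper-quartile normalization 63.0% of called genes were higher, against 48.6%). Of 7 activation genes 4 rose and 1 fell, and of 5 angiopoietin axis genes 3 rose and 0 fell. The transcription factors (2 higher and 1 lower of 14), arterial genes (2 and 1 of 10) and capillary genes (2 and 0 of 7) were near the share of all genes, and of the 20 other pan-endothelial genes 2 rose and 0 fell. *Bmx* rose by 2.58 (adjusted p 0.000895), *Gpihbp1* by 2.10 (adjusted p 0.0143), *Icam1* by 1.01 (adjusted p 0.0139) and *Pdgfb* by 0.49 (adjusted p 0.0235). With single libraries dropped, 2320 to 6035 of all tested genes passed at this step, against 5773 with all libraries. E14.5 libraries 1 and 3 are those with *Ttr*. Without both, 1 E14.5 library is left and gives no spread, so the calls at this step cannot be tested without them. The log2 fold changes were then 2.35 for *Bmx*, 2.37 for *Gpihbp1*, 0.94 for *Icam1* and 0.40 for *Pdgfb*.

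Within a stage the members went up and down together. E16.5 library 1 was highest in 10 of 10 members, E13.5 library 2 and E15.5 library 3 were lowest in 9 each, E14.5 library 1 in 8 and P0 library 3 in 7. Over the 15 libraries the 45 pairs of members had Pearson correlations of 0.29 (*Kdr* with *Emcn*) to 0.98 (*Tie1* with *Esam*) with a median of 0.75, and with stage means removed the range was 0.34 to 0.97 and the median 0.75. The mean correlation of a member with the other 9 ran from 0.49 (*Kdr*) to 0.81 (*Cdh5*), and with stage means removed from 0.60 (*Vwf*) to 0.81 (*Pecam1*), where *Kdr* was at 0.70 and *Cdh5* at 0.77. The points share their libraries, depth and tissue make-up, so these values are a description.

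Among 16501 other genes with a mean of at least 1 CPM, the 10 whose log2 CPM was most like the mean of the members over the 15 libraries were *Npr1* (Pearson correlation 0.98), *Mmrn2* (0.97), *Acvrl1* (0.95), *Acad12* (0.95), *Gstt2* (0.95), *Lpcat3* (0.94), *Kif1c* (0.94), *Cpq* (0.94), *Eng* (0.94) and *Slc41a1* (0.94). *Mmrn2*, *Acvrl1* and *Eng* are 3 of the other pan-endothelial genes. With stage means removed the correlations of the 10 were 0.87 (*Cpq*) to 0.97 (*Npr1*).

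The summed level of the 10 members was 513, 382 and 473 CPM in the E13.5 pools, 375, 479.8 and 485 in the E14.5 pools, 586, 563 and 512 in the E15.5 pools, 926, 579 and 571 in the E16.5 pools and 737, 817 and 566 in the P0 pools. E16.5 library 1 and P0 libraries 1 and 2 were the 3 highest of all 15. The same 3 libraries had the most muscle RNA and the highest sums of capillary genes, 1957, 386 and 276 CPM at E16.5 and 1040.2, 2619.6 and 334 at P0. In these 3 a large part of the capillary sum was *Fabp4* (values above), which fat also makes. Mural cell genes, of the pericytes and smooth muscle around vessels, were steadier within these stages, at 1075, 981 and 896 and 1023, 963 and 950.0 CPM. The 8 platelet and megakaryocyte genes summed to 7.76 to 44.1 CPM over all libraries, with means of 18.9 ± 3.04 at E13.5 and 38.7 ± 5.16 at P0. They included *Pf4*, which macrophages also make (5.30 ± 1.35 CPM at E13.5 and 23.2 ± 2.32 at P0). Of 7 tested, 1 rose from E13.5 to P0 and 3 fell, beside 29.8% and 26.8% of all genes. Among those that fell were the platelet glycoprotein genes *Gp1ba*, from 0.778 ± 0.146 to 0.0533 ± 0.00892 CPM, which is at the floor, and *Gp9*, from 1.07 ± 0.205 to 0.3 ± 0.117. The part of platelet RNA in the levels of *Pecam1* and *Vwf*, which platelets share, was not tested. *Ptprc*, of all leukocytes, was at 3.17 ± 0.911 and 6.002 ± 0.475 CPM (edgeR adjusted p 0.0154, up to 0.0688 with single libraries dropped). Of 8 macrophage genes 7 rose and 1 fell, with sums of 106, 82.2 and 127 CPM at E13.5 and 486, 338 and 367 at P0. Their part in the level of *Pecam1*, which some leukocytes make, was not tested.

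**Figure D5:**
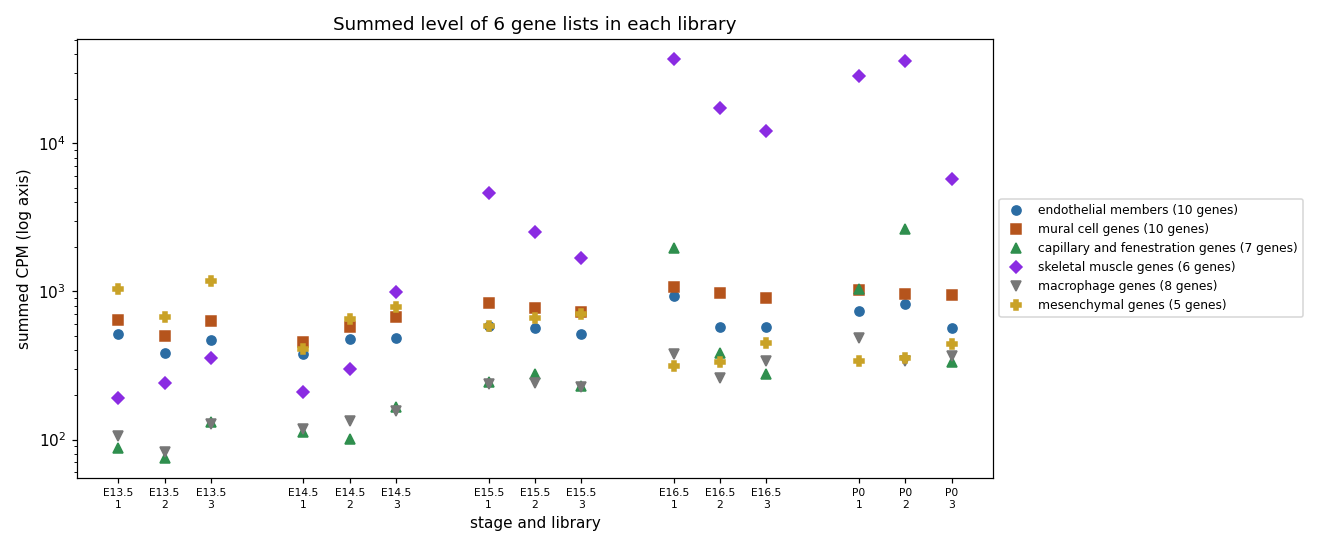
Summed CPM (log axis) of the 10 endothelial genes and of 5 other gene lists in each of the 15 libraries. The endothelial sum is highest in E16.5 library 1 and P0 libraries 1 and 2, where the skeletal muscle and capillary sums are highest too, whereas the mural sum varies little within E16.5 and P0. The capillary sum includes *Fabp4* and *Cd36*, which fat also makes, and *Cd36* is made by muscle too.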

How the data were processed

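The authors deposited raw counts per gene for all 15 libraries in 1 table, made with featureCounts 2.0.1, which counted fragments on the reverse strand over GENCODE M18 genes, per the file headers. The submitters' processing notes also name cutadapt 3.4, HISAT2 2.2.1, SAMtools 1.12, FastQC 0.11.9, Bowtie2 and the build mm10. Genes were kept with filterByExpr (minimum count 10; 22151 genes) and tested with edgeR 4.0.16 in R 4.3.3 (TMM, quasi-likelihood, all 15 libraries in 1 fit over the 5 stages, Benjamini-Hochberg adjustment, threshold 0.05); the common biological coefficient of variation was 0.332. Ratios were log2 of counts plus 0.5. The code was tested on simulated data. Lists of context genes came from general knowledge; in each list and contrast at most 3 genes per direction with an adjusted p under 0.05 and a mean of at least 1 CPM are named, besides ligands, lymphatic, fenestral and blood cell genes fixed by name (*Vegfa*, *Vegfc*, *Pgf*, *Angpt1*, *Angpt2*, *Flt4*, *Nrp1*, *Prox1*, *Lyve1*, *Plvap*, *Pf4*, *Ptprc*) and the 10 genes most like the members. *Osr2*, *Epcam*, *Ttr*, *Gp1ba* and *Gp9* were added after their values were seen, as checks of the tissue. The members and lists were chosen with earlier results of these data known. Alternatives were DESeq2 1.42.0, its size factors, upper-quartile normalization, no filter, a mean of 1 CPM, only the 6 libraries compared, the replicate number as a block, each library left out, and, chosen after seeing the data, 2 pairs of libraries left out. Libraries of a stage differed beyond sampling noise in every pair (chi-square per degree of freedom 32.6 to 246). Floors cover counting error only, since no molecular identifiers are named.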

Additional observations from a re-analysis of the deposited data

How the results depend on the processing

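Of the 36 context genes named and called for P0 against E13.5, 30 passed whichever single library was dropped. Of the 16 for E15.5 against E14.5, 6 did. Leaving out P0 libraries 1 and 2, or E14.5 libraries 1 and 3, leaves 1 library of that stage and no spread. In these 2 fits 0 of the named genes of the 36 and of the 16, respectively, changed sign. Without P0 libraries 1 and 2 the log2 fold changes of the members for P0 against E13.5 ran from -0.36 (*Kdr*) to 0.83 (*Pecam1*). The count of members called for P0 against E13.5 was 6, and with single libraries dropped it ran from 3 (without E13.5 library 2) to 7. Each of these fits kept P0 library 1 or 2. No count is given without both, because 1 P0 library has no spread. For E15.5 against E14.5 the count of members called was 1 (*Esam*) with only the 6 libraries, and 0 to 1 with single libraries dropped (1 without E16.5 library 1). For E16.5 against E15.5 it was 1 with DESeq2 (*Vwf*). DESeq2 called more genes in all: 1000 instead of 2 for E14.5 against E13.5, 2056 instead of 312 for E16.5 against E15.5, and 667 instead of 78 for P0 against E16.5. Upper-quartile normalization moved the median of all genes for E15.5 against E14.5 from 0.03 to 0.16, and the share of higher calls for P0 against E16.5 from 53.8% to 67.9%. The cause was not tested.

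The numbers did not pair the libraries (same-numbered libraries correlated at -0.30 to 0.55, and 6 of 15 libraries correlated best with their own number). With the replicate block the members called for P0 against E13.5 were 5 (*Cdh5* lost, adjusted p 0.0566), and the *Sox17* to *Pecam1* ratio, at -0.57, had a permutation adjusted p of 0.0656. That ratio ran from -0.83 to -0.42 with single libraries dropped, with an adjusted p of up to 0.0739, and the *Tie1* to *Tek* ratio from 0.31 to 0.62, with the lowest adjusted p of 0.0245 without P0 library 2.

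Members near 0 changed sign, all without passing. For E14.5 against E13.5, DESeq2, its size factors, the fit without P0 libraries 1 and 2, a mean of 1 CPM, only the 6 libraries and upper-quartile normalization gave, in that order, -0.0085, -0.0085, -0.0040, -0.026, -0.032 and -0.063 for *Pecam1* and -0.011, -0.011, -0.0078, -0.030, -0.037 and -0.068 for *Esam*. The last 3 gave -0.013, -0.022 and -0.050 for *Kdr* and -0.016, -0.025 and -0.054 for *Flt1*. Without E14.5 libraries 1 and 3 *Tie1* was 0.14, *Sox17* 0.091 and *Vwf* 0.054, and with the replicate block *Vwf* was 0.00027. For E15.5 against E14.5, *Kdr* was 0.0021 without P0 libraries 1 and 2, 0.032 with a mean of 1 CPM and 0.074 with upper-quartile normalization. Without P0 libraries 1 and 2, P0 against E16.5 was -0.29 for *Pecam1*, -0.40 for *Cdh5* and -0.027 for *Tie1*, and P0 against E13.5 was -0.36 for *Kdr* and -0.043 for *Tek*.

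With single libraries dropped, the changes whose sign turned ran, for E14.5 against E13.5, from -0.12 to 0.16 (*Pecam1*), -0.26 to 0.052 (*Cdh5*), -0.023 to 0.12 (*Kdr*), -0.058 to 0.16 (*Flt1*), -0.15 to 0.11 (*Tie1*), -0.093 to 0.093 (*Esam*) and -0.14 to 0.19 (*Vwf*), and for E15.5 against E14.5 from -0.11 to 0.0054 (*Kdr*). For E16.5 against E15.5 they ran from -0.065 to 0.29 (*Cdh5*), -0.14 to 0.35 (*Tie1*), -0.093 to 0.15 (*Tek*), -0.17 to 0.29 (*Sox17*), -0.37 to 0.13 (*Emcn*) and -0.064 to 0.50 (*Esam*). For P0 against E16.5 they ran from -0.011 to 0.51 (*Pecam1*), -0.16 to 0.31 (*Cdh5*), -0.37 to 0.026 (*Tek*), -0.26 to 0.25 (*Emcn*) and -0.23 to 0.25 (*Vwf*), and for P0 against E13.5 from -0.22 to 0.21 (*Kdr*).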

Other observations

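RNA of genes of other cell types was read in the same way, beside 29.8% of all genes higher and 26.8% lower at P0 than at E13.5. Of 10 mural cell genes 8 rose from E13.5 to P0 and 1 fell, and their sum went from 640.0, 496 and 632 CPM at E13.5 to 1023, 963 and 950.0 at P0. The smooth muscle genes *Myh11* and *Tagln* rose by 3.35 and 2.59 on the log2 scale (edgeR adjusted p 0.000363 and 8.25e-05), and *Notch3*, the mural Notch receptor, fell by 1.03 (adjusted p 3.88e-05). Of 5 mesenchymal genes 0 rose and 4 fell, and of 8 cell cycle genes 0 rose and 7 fell. Of 10 erythroid genes 0 rose and 5 fell, with sums of 1218, 2428 and 4664 CPM at E13.5 and 667, 987 and 831 at P0. Of 6 osteoblast genes and of 6 epithelial genes 5 rose and 0 fell in each list.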
